A study of Mus musculus with 8 samples.

Results

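Transcripts of 10 genes of interleukin-6 (IL-6) signalling were followed in mouse livers after ischemia and reperfusion (I/R). The genes were the cytokines Il6, Lif, Osm and Il11, the receptors Il6ra, Il6st, Lifr and Osmr, the transcription factor gene Stat3 and its target Socs3. They were chosen by symbol from the 54532 genes of the deposited table, and all 10 were found and passed the minimum level for testing. The 4 cytokines passed it through 1 group only, as given below. The animals were 4 METTL3-HKD and 4 METTL3-Flox mice, 1 liver each was sequenced, and every one of them had gone through 1 h of ischemia and then 6 h of reperfusion. METTL3 is the catalytic subunit of the complex that writes N6-methyladenosine into RNA, and the comparison asks how the injured liver differs when hepatocytes have less of it. METTL3-HKD mice carried METTL3 flox/- with Alb-iCre, a Cre recombinase under the albumin promoter, which is active in hepatocytes. The paper describes the knockdown as specific to hepatocytes and used these heterozygous mice because full knockouts died. Cre activity in other liver cells was not measured in these data, and what the minus in flox/- stands for is not stated. METTL3-Flox mice were METTL3 flox/flox, with no Cre named in their genotype, and are described as littermates of the METTL3-HKD mice. By the genotypes as written, the groups differ in the number of floxed copies as well as in Cre. In the floxed allele loxP sites flank exon 4, and its founders were crossed to C57BL/6 mice. The background of the Alb-iCre line is not stated. The age of the sequenced mice is not given in the sources used here, and sham-operated livers were not analysed here, so a difference between the groups is a difference between injured livers.

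Cytokines of the IL-6 family signal through the shared receptor chain gp130, the product of Il6st. IL-6 and IL-11 first bind their own alpha chains, whereas LIF and oncostatin M engage gp130 together with the LIF receptor or the oncostatin M receptor. The receptors activate Janus kinases, which phosphorylate STAT3, and STAT3 induces Socs3, whose product shuts off gp130 signalling. In the liver this pathway is known for driving the acute phase response of hepatocytes and for its part in regeneration.

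The bases before the start sites of Il6, Lif, Il11 and Socs3 are shown because the 3 cytokine genes rose together and because Socs3 is the classical feedback target of STAT3. They come from RefSeq on GRCm38.p6, where 9 of the 10 genes have an entry and Osm has none. Windows of 250 bases before each start were searched on both strands for a STAT motif (TTCNNNGAA), an AP-1 motif (TGANTCA), an NF-kB motif (GGANTTTCC), a C/EBP motif (TTGCNNAA) and a short CRE motif (TGACGT). Exon bases of other transcripts were left out of the printed windows. Sequences run 5′ to 3′ on the strand of the gene, and capitals mark the STAT, AP-1, NF-kB and C/EBP matches. The windows are chr5:30012864-30013113 on the plus strand for Il6, chr11:4257318-4257556 on the plus strand for Lif, chr7:4778142-4778391 on the minus strand for the downstream start of Il11 and chr11:117969452-117969616 on the minus strand for Socs3.
Il6: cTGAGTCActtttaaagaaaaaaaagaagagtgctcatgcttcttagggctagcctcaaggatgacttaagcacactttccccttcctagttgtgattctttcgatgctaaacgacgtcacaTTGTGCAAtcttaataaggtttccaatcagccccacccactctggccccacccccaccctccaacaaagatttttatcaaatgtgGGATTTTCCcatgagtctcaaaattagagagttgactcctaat
Lif: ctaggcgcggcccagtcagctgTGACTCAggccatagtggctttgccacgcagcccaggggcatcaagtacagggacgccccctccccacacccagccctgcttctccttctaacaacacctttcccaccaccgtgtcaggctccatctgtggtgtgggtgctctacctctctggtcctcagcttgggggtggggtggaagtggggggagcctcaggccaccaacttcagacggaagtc
Il11: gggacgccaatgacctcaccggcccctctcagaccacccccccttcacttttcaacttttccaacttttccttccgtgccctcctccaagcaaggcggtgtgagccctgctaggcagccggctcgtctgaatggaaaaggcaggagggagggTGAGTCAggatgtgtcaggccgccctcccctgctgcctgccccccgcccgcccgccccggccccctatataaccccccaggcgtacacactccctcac
Socs3: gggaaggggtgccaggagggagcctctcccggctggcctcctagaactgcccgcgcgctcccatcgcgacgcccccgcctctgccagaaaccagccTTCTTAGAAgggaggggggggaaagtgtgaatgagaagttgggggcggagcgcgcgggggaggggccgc

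The Il6 window held an AP-1 match, TGAGTCA, from 249 to 243 bases before the start, a C/EBP match, TTGTGCAA, from 128 to 121 bases before it and an NF-kB match, GGATTTTCC, from 43 to 35 bases before it. A short CRE match on the other strand, ACGTCA, lay from 136 to 131 bases before the Il6 start, next to the C/EBP match. An AP-1 match, TGACTCA, stood from 228 to 222 bases before the start of Lif, and another, TGAGTCA, from 98 to 92 bases before the downstream start of Il11. The Socs3 window held the STAT match TTCTTAGAA, from 154 to 146 bases before the start. Among all 32851 promoter windows of the same length, 6.75% held the AP-1 motif, 1.07% the NF-kB motif, 9.56% the C/EBP motif, 6.47% the short CRE motif and 7.02% the STAT motif. No match to these letters was present in the windows of Il6ra, Il6st, Lifr, Osmr or Stat3, or before the upstream start of Il11. A match is a description of letters, and binding was not measured in these livers.

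Between 15861245 and 18434488 reads per liver fell on genes, in overlapping ranges for the groups. The effective library sizes behind the FPKM did not overlap, at 1.06 to 1.18 times their mean in METTL3-HKD livers and 0.830 to 0.944 times in METTL3-Flox livers. Mettl3 itself measured 1.33 ± 0.181 FPKM in METTL3-HKD livers and 1.50 ± 0.282 in METTL3-Flox livers (SD, n = 4; limma, adjusted p = 0.556), so its whole-gene level does not check the labels. FPKM are reads scaled to the length of the gene and here to this effective library size. Reads on genes were 0.857 to 0.992 times that size in METTL3-HKD livers and 0.992 to 1.19 times in METTL3-Flox livers. Log2 fold changes below were fitted by limma on log2(FPKM + 0.1), which understates the change of genes near 0, and a gene was called when its Benjamini-Hochberg adjusted p over 16645 tested genes was under 0.05. Among the cell markers, all 10 neutrophil genes were called higher in METTL3-HKD livers, led in abundance by S100a9, and their summed level lay between 346 and 1682 FPKM against 13.6 to 45.7 in METTL3-Flox livers. Of 11 macrophage and Kupffer cell markers, with Cd5l the most abundant, 5 were called lower. The summed level of those markers was 154 to 304 FPKM against 286 to 677. Of the cholangiocyte markers 4 of 5 tested genes were called higher, with Spp1 the most abundant. Hepatocyte markers, led by Alb, included 1 called lower of 11, namely Hnf4a. Stellate cell and fibroblast markers, led by Dcn, had 1 called in each direction of 8. Endothelial markers, led by Clec4g, had none called of 8, nor did the T, B and NK cell markers, led by Nkg7, of which 4 of 10 were tested. For comparison, 9.05% of all tested genes were called higher and 6.63% lower, and the hepatocyte and the stellate cell and fibroblast counts were near these shares. No marker was at 0 in every liver. In whole liver RNA, a change in the number of cells of a type and a change in RNA per cell cannot be told apart.

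Of the 10 genes, 6 were called higher and 1 lower in METTL3-HKD livers. All 4 cytokines rose, Il6st and Osmr rose, Il6ra fell, and Lifr, Stat3 and Socs3 were not called. Over all tested genes 9.05% were called higher and 6.63% lower. With a change of at least 2-fold also required, 4 of the 10 genes were higher and 0 lower, against 4.7% and 1.52% of all tested genes. These 4 were the cytokines, which met the minimum mean of 0.1 FPKM only through the METTL3-HKD livers, where they were high. Their count beside that share is therefore a description and not a test. The ranges of the groups did not overlap for the 7 called genes, whereas 12.7% of all tested genes were higher and 9.95% lower without overlap. For each of these 7 the exact permutation test gave p = 0.0286 (two-sided), which is the smallest value that 4 livers against 4 can give. The 4 cytokines are among these 7 and among the 6 called higher. Those counts are therefore descriptions too, and the p-values of the cytokines carry the same limit.

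**Figure D1:**
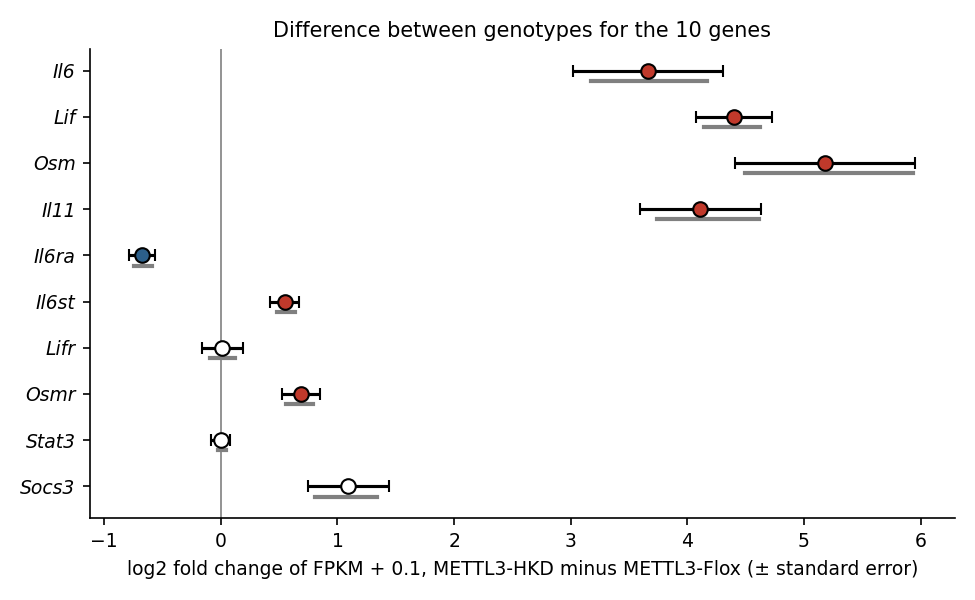
Log2 fold change of each of the 10 genes, METTL3-HKD minus METTL3-Flox, fitted by limma on log2(FPKM + 0.1) in 4 livers per group. Points are estimates with their standard error, red for genes called higher, blue for lower and white for genes not called, and grey bars give the range when each liver is left out in turn. The 4 cytokines lie between 3.66 and 5.18, while the 4 receptors lie between -0.67 and 0.69.

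The 4 cytokine transcripts were close to absent in METTL3-Flox livers and present in every METTL3-HKD liver. In METTL3-Flox livers none of them exceeded 0.0981 FPKM, and no liver held more than 5 reads of any of them. Il6 encodes IL-6, the cytokine best known for inducing acute phase proteins in hepatocytes. It is listed as ENSMUSG00000025746 on the plus strand at chr5:30013114-30019981. METTL3-HKD livers 1 to 4 held 2.85, 0.646, 0.410 and 3.92 FPKM, whereas METTL3-Flox livers 1 to 4 held 0, 0.0765, 0 and 0 FPKM. The METTL3-HKD livers fell into a higher pair, livers 1 and 4, and a lower pair, livers 2 and 3, and the lowest of them was still 5.37 times the only METTL3-Flox liver above 0. These levels rest on 139, 29, 18 and 177 reads in the METTL3-HKD livers and on 3 reads in METTL3-Flox liver 2. The means were 1.96 ± 1.71 and 0.0191 ± 0.0382 FPKM (SD, n = 4), with a log2 fold change of 3.66 (SE 0.645, limma, adjusted p = 0.0102).

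Lif was the steadiest of the cytokines. It encodes leukemia inhibitory factor and lies on the plus strand at chr11:4257557-4272514 (ENSMUSG00000034394). Lif reached 4.39, 2.09, 1.53 and 2.80 FPKM in METTL3-HKD livers, taken in order from liver 1, whereas the METTL3-Flox livers were at 0.0162, 0.0142, 0.0756 and 0 FPKM. The highest METTL3-HKD liver was 2.87 times the lowest, and the lowest was 20.2 times the highest METTL3-Flox liver. Lif had 384, 168, 120 and 226 reads in METTL3-HKD livers, against 1, 1, 5 and 0 in METTL3-Flox livers. Mean levels were 2.70 ± 1.24 and 0.0265 ± 0.0335 FPKM (SD, n = 4), and the log2 fold change was 4.40 (SE 0.330, limma, adjusted p = 0.000589).

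Osm had the highest mean of the 4 cytokines in METTL3-HKD livers and the widest spread between them. It encodes oncostatin M, a cytokine made mainly by myeloid cells, and lies on the plus strand at chr11:4236420-4241026 (ENSMUSG00000058755). METTL3-HKD livers 1 to 4 held 20.5, 4.0, 0.926 and 6.73 FPKM, and METTL3-Flox livers held 0, 0.0817, 0.0869 and 0 FPKM. Liver 1 was 22.1 times liver 3, although liver 3 was still 10.7 times the highest METTL3-Flox liver. Reads numbered 937, 168, 38 and 284 in the METTL3-HKD livers and 0, 3, 3 and 0 in the METTL3-Flox livers. The means were 8.04 ± 8.64 and 0.0421 ± 0.0487 FPKM (SD, n = 4), and the log2 fold change was 5.18 (SE 0.773, limma, adjusted p = 0.00592). Fitted by voom on the rebuilt reads, Osm lost its call (log2 fold change 7.01, adjusted p = 0.0883).

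Il11 encodes IL-11, a cytokine of fibroblasts and other stromal cells. It lies on the minus strand at chr7:4772373-4782857 (ENSMUSG00000004371). METTL3-HKD livers 1 to 4 reached 4.89, 2.82, 0.715 and 2.41 FPKM, and METTL3-Flox livers reached 0.0699, 0, 0.0981 and 0 FPKM. METTL3-HKD liver 1 was the highest and liver 3 the lowest, 6.84 times apart, with liver 3 at 7.29 times the highest METTL3-Flox liver. The reads behind these levels were 198, 105, 26 and 90 in METTL3-HKD livers and 2, 0, 3 and 0 in METTL3-Flox livers. Mean levels were 2.71 ± 1.72 and 0.0420 ± 0.0498 FPKM (SD, n = 4), with a log2 fold change of 4.11 (SE 0.518, limma, adjusted p = 0.00378).

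Because a fitted fold change of genes this low depends on the pseudocount, the summed reads of the groups were also compared after allowing for library size. Il6 had 363 reads against 3, a ratio of 99.2 with a 95% exact interval of 33.7 to 483. Lif had 898 reads against 7, a ratio of 105 (50.8 to 262). For Osm the reads were 1427 against 6 and the ratio 195 (89.3 to 532), and for Il11 they were 419 against 5 and the ratio 68.7 (29.2 to 213). These intervals cover counting error only and leave out the spread between livers, which was larger for Osm than for Lif.

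**Figure D2:**
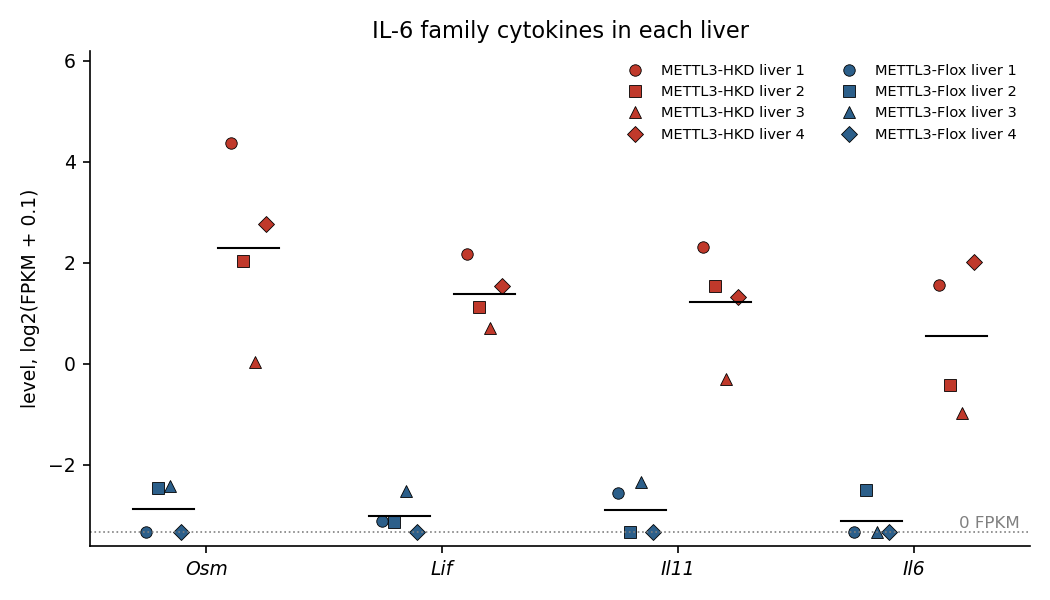
Levels of Il6, Lif, Osm and Il11 in each liver on the scale log2(FPKM + 0.1), red for METTL3-HKD and blue for METTL3-Flox, with the marker shape giving the liver number and short lines the mean of the log2 values. The dotted line marks 0 FPKM. All METTL3-HKD livers lie above all METTL3-Flox livers for each cytokine, and liver 3 is the lowest METTL3-HKD liver for all 4.

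Summed over the 4 cytokines, METTL3-HKD livers 1 to 4 held 32.6, 9.56, 3.58 and 15.9 FPKM, and METTL3-Flox livers held 0.0861, 0.172, 0.261 and 0 FPKM. Summed over the 10 neutrophil markers, the same METTL3-HKD livers held 1682, 394, 346 and 575 FPKM, and the METTL3-Flox livers held 45.7, 28.3, 13.6 and 25.9 FPKM. Both sums therefore had the same order over the METTL3-HKD livers, with liver 1 highest and liver 3 lowest, but not the same order over the METTL3-Flox livers. Taken singly, Osm and Lif had that order over the METTL3-HKD livers. Il6 was instead highest in liver 4, and Il11 was higher in liver 2 than in liver 4. The part of neutrophil RNA in the cytokine levels was not tested.

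The receptor genes moved by less than 2-fold and in both directions. Il6st, which encodes gp130, rose, as did Osmr, while Il6ra, which encodes the IL-6 binding chain, fell. Il6ra (ENSMUSG00000027947, chr3:89864059-89913196, minus strand) stood at 5.99, 4.86, 6.73 and 5.85 FPKM in the METTL3-HKD livers, in order, while METTL3-Flox livers stood at 8.82, 9.97, 9.0 and 9.60 FPKM. Every METTL3-HKD liver was below every METTL3-Flox liver, and the spread within each group was small. The means were 5.86 ± 0.770 and 9.35 ± 0.534 FPKM (SD, n = 4), and the log2 fold change was -0.67 (SE 0.111, limma, adjusted p = 0.00821). Il6ra was called lower under all 17 alternatives tried. With the values scaled to all reads on genes its log2 fold change was smaller, at -0.46 (limma, adjusted p = 0.0377). Under that scaling the estimates of Il6st and Osmr were larger, at 0.76 and 0.89. Il6ra shares 242 exon bases with Gm42809 on the other strand, which reached at most 0.381 FPKM.

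Il6st (ENSMUSG00000021756, chr13:112464070-112510086, plus strand) was the most abundant receptor gene. METTL3-HKD livers 1 to 4 measured 39.1, 41.0, 29.4 and 34.6 FPKM, and METTL3-Flox livers measured 21.5, 25.7, 27.7 and 23.3 FPKM. The groups did not overlap, but METTL3-HKD liver 3 at 29.4 FPKM came close to METTL3-Flox liver 3 at 27.7 FPKM. The means were 36.0 ± 5.16 and 24.6 ± 2.73 FPKM (SD, n = 4), and the log2 fold change was 0.55 (SE 0.127, limma, adjusted p = 0.0242). The call was lost without METTL3-HKD liver 1 (limma, adjusted p = 0.0663), METTL3-HKD liver 2 (0.0623) or METTL3-Flox liver 4 (0.0619).

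Osmr (ENSMUSG00000022146, chr15:6813577-6874969, minus strand) encodes the chain that pairs with gp130 in the oncostatin M receptor. Its FPKM were 2.79, 1.88, 1.70 and 2.28 over METTL3-HKD livers 1 to 4, against 1.42, 1.32, 1.23 and 1.17 over METTL3-Flox livers. All METTL3-HKD livers were higher, and liver 1 was the highest, as it was for Osm. The means were 2.16 ± 0.481 and 1.29 ± 0.108 FPKM (SD, n = 4), and the log2 fold change was 0.69 (SE 0.164, limma, adjusted p = 0.0260). The call was lost without METTL3-HKD liver 1 (limma, adjusted p = 0.0562) or 4 (0.0606), or without METTL3-Flox liver 2 (0.0552), 3 (0.0688) or 4 (0.0654).

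Lifr (ENSMUSG00000054263, chr15:7090614-7197489, plus strand) encodes the chain that pairs with gp130 for LIF, and it did not pass the test. METTL3-HKD livers 1 to 4 held 9.41, 12.7, 12.2 and 8.42 FPKM, and METTL3-Flox livers held 8.33, 12.3, 12.3 and 9.49 FPKM. The groups covered nearly the same range, with means of 10.7 ± 2.11 and 10.6 ± 2.0 FPKM (SD, n = 4). The log2 fold change was 0.01 (SE 0.177, limma, adjusted p = 0.973).

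**Figure D3:**
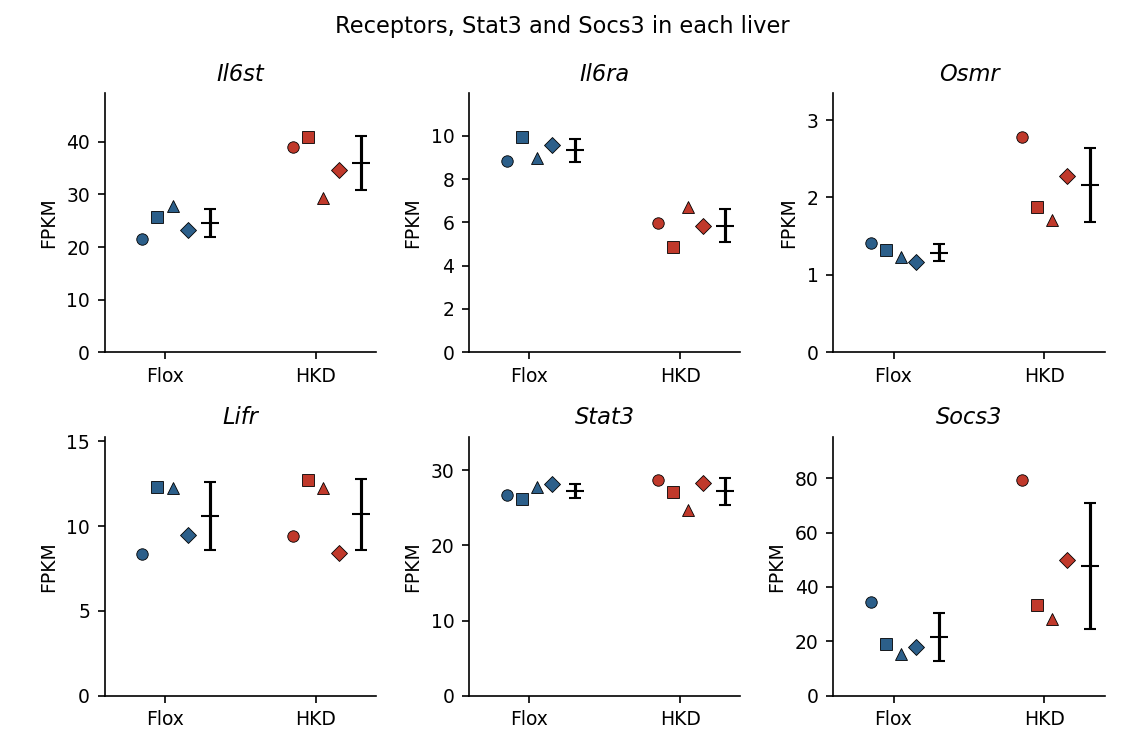
FPKM of Il6st, Il6ra, Osmr, Lifr, Stat3 and Socs3 in each liver, 1 panel per gene with an axis from 0, METTL3-HKD in red and METTL3-Flox in blue. Bars give the mean ± SD of 4 livers and marker shapes the liver number. The groups are apart for Il6st, Il6ra and Osmr and overlap for Lifr, Stat3 and Socs3.

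Since the receptor genes moved in opposite directions, their proportions within each liver were computed, after the values had been seen and without a test. FPKM of Il6st over FPKM of Il6ra was 6.52, 8.44, 4.37 and 5.92 in METTL3-HKD livers 1 to 4, and 2.44, 2.58, 3.08 and 2.42 in METTL3-Flox livers. The mean ratios were 6.31 ± 1.68 and 2.63 ± 0.310 (SD, n = 4), with no overlap. FPKM of Osmr over FPKM of Lifr was 0.296, 0.148, 0.139 and 0.271 in METTL3-HKD livers and 0.170, 0.108, 0.101 and 0.123 in METTL3-Flox livers. This second ratio overlapped between the groups.

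Stat3 was not called. It encodes the transcription factor that carries the gp130 signal to the nucleus (ENSMUSG00000004040, chr11:100885098-100939540, minus strand). METTL3-HKD livers 1 to 4 showed 28.7, 27.1, 24.7 and 28.3 FPKM, and METTL3-Flox livers showed 26.8, 26.1, 27.7 and 28.2 FPKM. The means were 27.2 ± 1.80 and 27.2 ± 0.928 FPKM (SD, n = 4), and the log2 fold change was -0.00 (SE 0.0796, limma, adjusted p = 0.990). Stat3 shares 72 exon bases with Stat5a on the other strand, which reached at most 2.01 FPKM, and phosphorylation of STAT3 was not measured by these data.

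Socs3 encodes the inhibitor that STAT3 induces (ENSMUSG00000053113, chr11:117966079-117970047, minus strand), and the STAT match shown above lies before its RefSeq start. Its FPKM were 79.3, 33.4, 28.1 and 50.0 over METTL3-HKD livers 1 to 4, and 34.5, 18.8, 15.4 and 17.8 over METTL3-Flox livers. METTL3-Flox liver 1 stood above METTL3-HKD livers 2 and 3, so the groups overlapped. The means were 47.7 ± 23.1 and 21.6 ± 8.71 FPKM (SD, n = 4), and the log2 fold change of 1.09 (SE 0.349) missed the threshold (limma, adjusted p = 0.0643; two-sided exact permutation p = 0.0857). Socs3 was called higher under 7 of 17 alternatives, among them without METTL3-HKD liver 3 (limma, adjusted p = 0.0377) and without METTL3-Flox liver 1 (0.0353). Its estimate stayed between 0.81 and 1.34 on the log2 scale when each liver was left out in turn.

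Ordered by mean FPKM, which is per length of gene, the METTL3-Flox livers ran from Stat3 through Il6st, Socs3, Lifr, Il6ra and Osmr to Osm, Il11, Lif and Il6. In this order the neighbours whose livers did not overlap were Socs3 and Lifr, Il6ra and Osmr, and Osmr and Osm. In METTL3-HKD livers the order was Socs3, Il6st, Stat3, Lifr, Osm, Il6ra, Il11, Lif, Osmr and Il6. There the levels were apart only between Il6st and Stat3 and between Stat3 and Lifr. The cytokines thus lay below every receptor gene in METTL3-Flox livers, whereas in METTL3-HKD livers their levels overlapped those of receptor genes.

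Osm and Lif are neighbours on chromosome 11, with 16530 bases and 0 genes between them. Within 100 kb of this pair lie 11 other genes, of which 6 were tested. None of the 6 was called higher and 1, Ccdc157, was called lower (log2 fold change -0.41, limma, adjusted p = 0.0447). Osmr and Lifr lie 215644 bases apart on chromosome 15 with 1 gene between them, and the only other gene tested within 100 kb of that pair, Rictor, was not called.

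Of 12 further cytokine and receptor genes of the family 6 were high enough to test, with 1 called higher, 0 lower and a median log2 fold change of 0.13. Over all tested genes that median was -0.00, and 9.05% were called higher. The gene called was Clcf1, which encodes a cytokine that signals through gp130 and the LIF receptor. Clcf1 measured 1.47, 0.772, 1.09 and 1.03 FPKM in METTL3-HKD livers and 0.246, 0.283, 0.425 and 0.586 FPKM in METTL3-Flox livers, so it was higher in 4 of 4 without overlap (log2 fold change 1.32, SE 0.269; limma, adjusted p = 0.0157). The most abundant of these genes were Il11ra1, the IL-11 binding chain, with a log2 fold change of -0.25 (limma, adjusted p = 0.266), and Ctf1, cardiotrophin 1, with -0.40 (limma, adjusted p = 0.255). Il11ra1 has close copies in the mouse genome, so its level is uncertain.

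Of 17 genes for kinases, other STATs, inhibitors, adaptors and the sheddases of the IL-6 receptor, all tested, 2 were called higher and 0 lower, with a median log2 fold change of 0.01. That share is close to the 9.05% of all tested genes called higher. Jak2, a kinase that binds gp130, was at 8.95 ± 2.29 FPKM in METTL3-HKD livers and 4.85 ± 0.685 in METTL3-Flox livers (SD, n = 4, log2 fold change 0.84, SE 0.197; limma, adjusted p = 0.0244). The Jak2 call was lost without METTL3-HKD liver 1 (limma, adjusted p = 0.0654) or 2 (0.0625), or without METTL3-Flox liver 2 (0.0543) or 4 (0.0530). Ptpn11 encodes SHP2, the phosphatase that shares its docking site on gp130 with SOCS3. Its level was 15.2 ± 1.04 against 12.0 ± 1.13 FPKM (SD, n = 4, log2 fold change 0.34; limma, adjusted p = 0.0422), and it lost its call under 11 of 17 alternatives, among them the omission of any liver except METTL3-Flox liver 4 (limma, adjusted p = 0.0609 to 0.108 in those 7). Leaving out 1 liver at a time brought the count of the list to 0 without METTL3-HKD liver 1 or 2 or METTL3-Flox liver 2, and to 1 without each of the others. The most abundant genes of the list, Jak1 and Grb2, had log2 fold changes of 0.11 and -0.17 (limma, adjusted p = 0.460 and 0.229).

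Among 12 early target genes of STAT3 4 were called higher and 0 lower, and the median log2 fold change was 0.56, beside the 9.05% of all tested genes called higher. This list, like the others, was written with earlier results of these data known, so the contrast is a description and not a test. Ier3, an early response gene that also answers to NF-kB, went from 1.58 ± 0.745 FPKM in METTL3-Flox livers to 33.4 ± 17.1 in METTL3-HKD livers (SD, n = 4, log2 fold change 4.24; limma, adjusted p = 0.0019). Myc, a growth regulator, went from 1.76 ± 0.574 to 5.68 ± 2.41 FPKM (SD, n = 4, log2 fold change 1.60; limma, adjusted p = 0.0130). The kinase gene Pim1 rose by 1.15 (limma, adjusted p = 0.0232) and the AP-1 gene Junb by 1.02 (limma, adjusted p = 0.0303) on the log2 scale. The most abundant members, Cebpb and Tnfrsf1a, had log2 fold changes of 0.34 and 0.05 and overlapped between the groups (limma, adjusted p = 0.376 and 0.782). The count fell from 4 to 2 without METTL3-Flox liver 2, 3 or 4, each of which ended the calls of Pim1 (limma, adjusted p = 0.0610, 0.0502 and 0.0560) and Junb (0.0746, 0.0774 and 0.0754). Pim1 also lost its call without METTL3-HKD liver 2 (limma, adjusted p = 0.0566), and Junb without METTL3-HKD liver 1 (0.0528) or 4 (0.0606).

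Of 26 genes listed as hepatic acute phase genes, all tested, 1 was called higher and 3 lower, where 9.05% and 6.63% of all tested genes were called. In this list 21 genes had a negative estimate, with a median log2 fold change of -0.49. Summed over the list, METTL3-HKD livers 1 to 4 held 50932, 46553, 61040 and 62889 FPKM. METTL3-Flox livers 1 to 4 held 117504.5, 66876, 76075 and 57652 FPKM. METTL3-Flox liver 1 thus stood far above the others, and METTL3-Flox liver 4 lay below METTL3-HKD livers 3 and 4. The gene called higher, Il1rn, encodes the IL-1 receptor antagonist, which myeloid cells make as well as hepatocytes. Over METTL3-HKD livers 1 to 4, Il1rn was at 22.1, 10.6, 7.92 and 9.60 FPKM, against 1.82, 1.52, 0.784 and 0.774 FPKM over METTL3-Flox livers (log2 fold change 3.23, SE 0.364; limma, adjusted p = 0.00272). The 3 genes called lower encode proteins that the liver secretes into plasma. Whether injury induces these 3 genes in such mice was not tested, as sham-operated livers were not analysed. Their lower levels therefore do not measure an acute phase response.

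A2m, a protease inhibitor, was at 3.58, 1.00, 1.41 and 2.26 FPKM in METTL3-HKD livers and 6.94, 18.7, 14.2 and 3.64 FPKM in METTL3-Flox livers (log2 fold change -2.23, SE 0.535; limma, adjusted p = 0.0264). Saa4, a serum amyloid A gene, was at 185 ± 38.6 against 424 ± 119 FPKM (SD, n = 4, log2 fold change -1.18; limma, adjusted p = 0.0112). Lbp, the lipopolysaccharide binding protein gene, was at 41.3 ± 7.22 against 66.4 ± 13.3 FPKM (SD, n = 4, log2 fold change -0.68; limma, adjusted p = 0.0302). The most abundant members, Hp (haptoglobin) and Hpx (hemopexin), did not pass the test with log2 fold changes of -0.66 and -0.82 (limma, adjusted p = 0.174 and 0.136), although each was lower in every METTL3-HKD liver than in any METTL3-Flox liver. The A2m call was lost without METTL3-HKD liver 2 (limma, adjusted p = 0.0650) or METTL3-Flox liver 2 (0.0620) or 3 (0.0752). The Lbp call was lost without METTL3-HKD liver 1 (limma, adjusted p = 0.0719), 3 (0.0558) or 4 (0.0660) or METTL3-Flox liver 1 (0.0591) or 3 (0.0824), so without METTL3-Flox liver 3 the list had 1 gene called in each direction. Without METTL3-Flox liver 1 it had 2 called in each direction. With the values scaled to all reads on genes, the median over all tested genes moved to 0.20, that of the acute phase genes to -0.28 and the number of negative estimates to 18 of 26. Hepatocyte markers had a median log2 fold change of -0.36, or -0.14 under that scaling, and their part in the acute phase values was not tested.

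**Figure D4:**
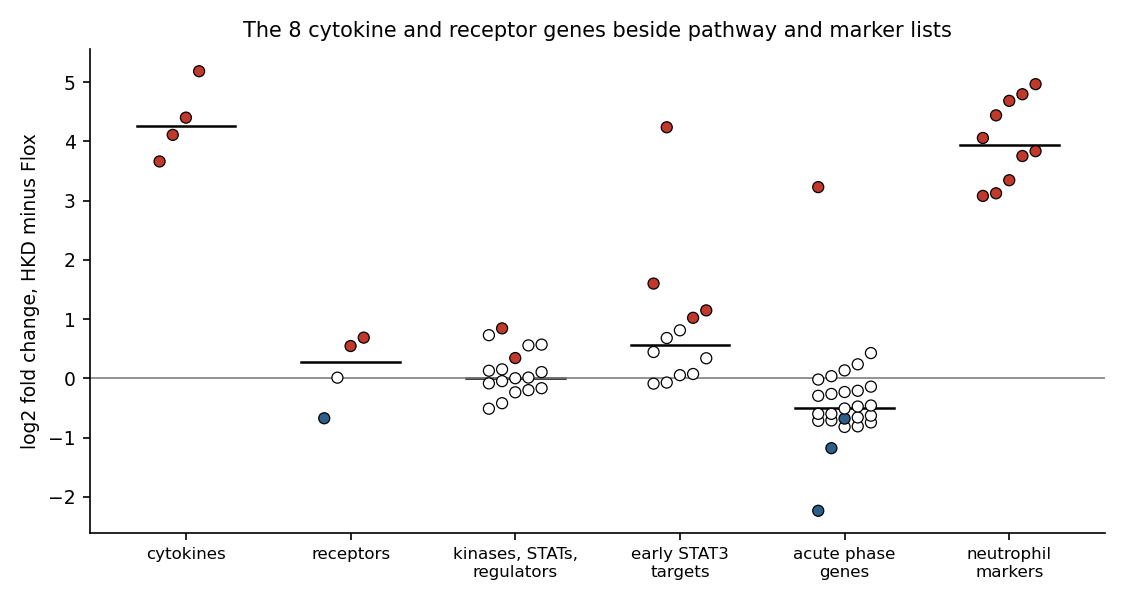
Log2 fold change, METTL3-HKD minus METTL3-Flox, of each tested gene in 6 groups of genes, with a line at the median of each group. The cytokines and the neutrophil markers lie well above 0, the early STAT3 target genes mostly above it, and 21 of 26 genes listed as acute phase genes below it.

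Genes with the pattern most like Il6, Osm and Socs3 over the 8 livers were named by the mean absolute difference of their centred log2(FPKM + 0.1), over 10694 genes of at least 1 FPKM. Nearest to Il6 were Cd300lf (0.405), Cxcl5 (0.409) and Lilr4b (0.434), where the median of all genes was 1.84. Cd300lf and Lilr4b encode receptors of myeloid cells, Lilr4b has a near-identical copy in the genome, and Cxcl5 encodes a chemokine that attracts neutrophils. Nearest to Osm were Ptgs2 (0.333), Cxcl3 (0.464) and Mmp3 (0.554), with a median of 2.60. Ptgs2 encodes the inducible cyclooxygenase, Cxcl3 another neutrophil chemokine and Mmp3 a matrix protease. Nearest to Socs3 were Ifitm1 (0.153), Tes (0.172) and Junb (0.177), with a median of 0.656, and Junb is also on the list of early STAT3 targets. These likenesses describe 8 livers in 2 groups, so the difference between the groups makes up much of them for Il6 and Osm.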

How the data were processed

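RNA had been extracted from whole liver and made into libraries with a SMARTer mRNA-Seq kit. The authors deposited FPKM per gene and the gene length, on GRCm38 (mm10). The aligner, counting and strand setting are not given in the sources used here, so genes that overlap on opposite strands cannot be told apart. The deposited FPKM times length and an effective library size gave whole reads (within 0.05 reads) for 100% of values, and these reads were used for depth, intervals and voom. Groups follow the labels, and no liver was dropped. The 16645 genes that averaged 0.1 FPKM or more over 8 livers were compared by limma 3.58.1 (eBayes with trend) in R 4.3.3 on log2(FPKM + 0.1). Single genes were tested over all 70 arrangements of the livers with scipy 1.17.1. The groups are described as littermates, but which livers share a litter or a day of surgery is not given in the sources used here, and p-values measure the spread between these livers. The method was tested on simulated data. The changed genes there were drawn from genes with more reads than the cytokines had in METTL3-Flox livers. Every simulated gene also had the same relative spread between livers beyond counting error. That spread was lower than the one of the cytokines and Socs3 in METTL3-HKD livers. The simulation therefore does not cover the calls of genes near 0 or of genes with so wide a spread.

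The genes and lists were chosen with earlier results of these data known. Besides the 10 genes, the text names Mettl3, the most abundant marker of each list, the 2 most abundant and up to 5 most changed called genes of each pathway list, and the 3 genes nearest in pattern to Il6, Osm and Socs3. Hnf4a, Gm42809, Stat5a, Ccdc157 and Rictor fall outside this rule and were named after their values were seen. Of 17 alternatives, 8 left out a liver, and the others changed the pseudocount, minimum level, trend, weights, scaling, gene types, replicate block or reads (voom).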

Additional observations from a re-analysis of the deposited data

Results flagged for a closer look

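Of 60 groups of 4 livers checked for the named genes, 2 held a liver that stood apart from the other 3 by Dixon's test. For normally distributed values, chance gives this in about 1 of 20 groups. Il6 in METTL3-Flox liver 2 was at 0.0765 FPKM, on 3 reads, while the other METTL3-Flox livers were at 0. With the other 3 at 0, any reads in that liver would have been flagged, so the rate above does not apply to it. Ier3 in METTL3-Flox liver 2 was at 2.68 FPKM, above the other 3 METTL3-Flox livers. Both lay below every METTL3-HKD liver for the same gene.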

How the results depend on the processing

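Lif, Il11 and Il6ra were called under all 17 alternatives, and Il6 under the 16 in which it was tested, since it fell below a minimum mean of 1 FPKM. The number of the 10 genes called higher ranged from 4 to 7, with 1 called lower throughout. With a replicate block Il6st lost its call (limma, adjusted p = 0.0661) and Socs3 gained one (0.0162), the kinases, STATs and regulators had 0 called higher and the acute phase genes 1 called in each direction. Over all tested genes, livers of the same number did not deviate together (correlations of deviations between -0.084 and 0.071). That does not settle pairing for single genes. With the block the SE of Socs3 fell from 0.349 to 0.139, while that of Il6ra rose from 0.111 to 0.128. With a minimum mean of 1 FPKM 0 of the other family genes were called higher. Of the kinases, STATs and regulators 1 was called higher with no minimum, without the trend or with array weights. With each liver left out in turn, the kinases, STATs and regulators had 0 to 1 called higher and 0 to 1 lower, the early STAT3 targets 2 to 6 higher, and the acute phase genes 1 to 2 higher and 1 to 3 lower. Some uncalled estimates near 0 changed sign. Lifr was -0.0618 with array weights and -0.0958 to 0.119 with a liver left out. Stat3 was 0.214 when scaled to reads on genes, where Grb2 was 0.0494, and Stat3 was -0.0283 to 0.0434 and Tnfrsf1a -0.0180 to 0.137 with a liver left out. Depth limits the cytokines in METTL3-Flox livers, where at most 5 reads were found, and 3 reads is the limit that a count of 0 allows.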
